A study of Mus musculus with 12 samples.

Results

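The genes described here are 10 markers of injured or repairing kidney tubule: Havcr1, Lcn2, Spp1, Clu, Vcam1, Krt8, Krt18, Krt19, Krt20 and Sox9. They were taken by name from a table of 46095 gene symbols, as a set chosen with earlier results of these data known, and all 10 were among the 17530 genes with enough counts to be tested. RNA was sequenced from renal cortex in 3 groups of 4 libraries. The DN+NaB libraries came from mice with diabetic nephropathy, the kidney disease of diabetes, that received sodium butyrate, the salt of a short-chain fatty acid that inhibits histone deacetylases. The DN libraries came from mice with diabetic nephropathy, and the NC libraries from normal controls. All are given as C57BL/6 mice aged 12 weeks. How diabetes was brought about, and the dose, route and length of the butyrate treatment, are not stated, so the stage of the kidney disease in these mice is not known here. The sources give 4 mice per group, yet tie no library to a mouse, so p-values measure the spread between these libraries.

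The nephron reabsorbs most of the filtered salt, sugar and protein through its proximal tubule. When that epithelium is injured, surviving cells lose part of their transport programme, switch on surface and secreted proteins such as KIM-1, NGAL and osteopontin, strengthen their keratin filaments, and divide under factors that include Sox9. Some cells return to the mature state, while others keep an adhesive, inflammatory state marked by VCAM-1. Several of these genes are also active in healthy tissue: Spp1 and Clu in distal segments, Krt8 and Krt18 in simple epithelia, Lcn2 in neutrophils and Vcam1 in endothelium and immune cells. In whole cortex, fewer cells of a type and less RNA per cell cannot be told apart.

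Total counts per library ran from 58394975 to 70674015, with a median of 63588713. The tissue name renal cortex stands beside an extraction text that speaks of prefrontal cortex. The 12 proximal tubule markers summed to 33884 to 44871 CPM (each count over the TMM-scaled library size, times 1e6) in DN+NaB, 25626 to 40752 CPM in DN and 29347 to 33761 CPM in NC, so kidney transcripts were abundant in all 12 libraries. One library stood apart and touches most of the results below. DN replicate 4 had the highest CPM of all 12 libraries for 9 of the 10 injury genes, beside 16.7% of all tested genes with their highest value there. Since the set was chosen with results of this library known, that count is a description. Krt8 was the exception, with its highest value in DN+NaB replicate 1.

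Set per kilobase of exon, the 10 genes covered a wide range of levels. In NC, Spp1 lay highest at 337 to 404 CPM per kilobase. Clu followed at 156 to 213, Krt8 at 46.4 to 51.0 and Krt18 at 15.2 to 28.3 CPM per kilobase, each clear of the next. Lcn2 at 4.67 to 5.97 CPM per kilobase and Vcam1 at 3.03 to 3.92 both overlapped the range of Krt19, 2.14 to 7.03, but not each other. Krt20 at 0.0576 to 0.453, Havcr1 at 0.0685 to 0.46 and Sox9 at 0.15 to 0.285 CPM per kilobase lay lowest and overlapped one another. These lengths come from GENCODE M21, which may not be the annotation behind the counts.

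**Figure D1:**
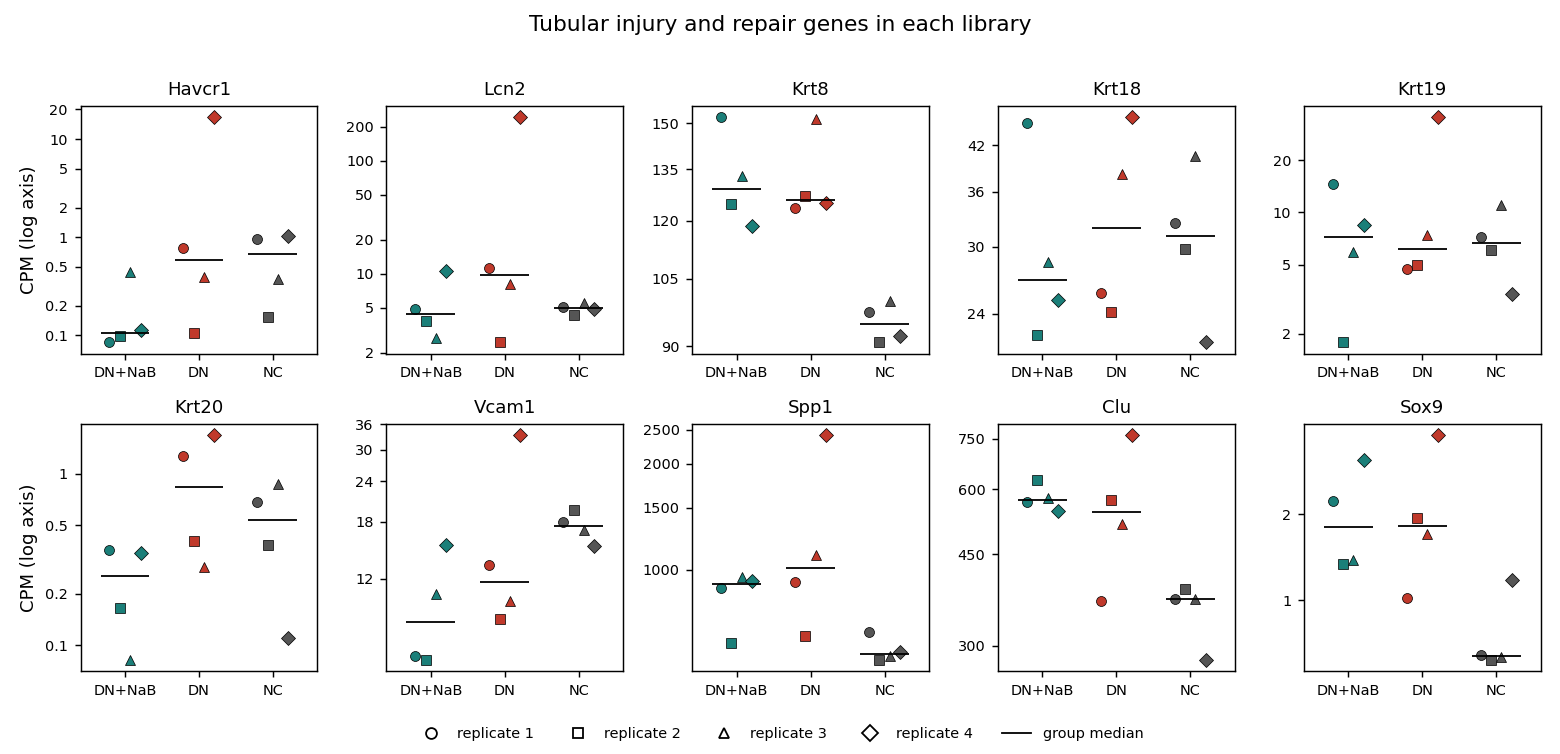
CPM of the 10 injury and repair genes in each library, on log axes that differ between panels, with DN+NaB, DN and NC from left to right, 4 libraries each, and a bar at the group median. DN replicate 4 (red diamond) is the highest point in 9 panels, by 21.6 times for Lcn2 and 1.02 times for Krt18, and only Krt8 has all 4 DN libraries above all 4 NC libraries.

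In diabetic nephropathy relative to normal controls, Krt8, Clu and Sox9 rose, and none of the 10 fell. The other 7 did not pass the test, although the largest fold changes were among them: Lcn2 at 13.4-fold and Havcr1 at 6.99-fold. The count of 3 of 10 higher stands beside 3.82% of all tested genes called higher and 4.42% called lower (edgeR's quasi-likelihood test, Benjamini-Hochberg adjusted p under 0.05, two-sided). The median log2 fold change was 0.87 for the 10 genes and 0.01 for all tested genes, and 9 of the 10 had a positive fold change. Without DN replicate 4, Krt8 alone was called higher, and the median over the 10 was 0.39. In that setting 5.16% of all tested genes were called higher and 5.92% lower.

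In diabetic mice given butyrate relative to diabetic mice without it, no injury gene passed the test in either direction. Only 0.0114% of all tested genes were called higher and 0.0114% lower, so few genes of any kind were called in this comparison. At an unadjusted p under 0.05 there were 3 of the 10 (Havcr1, Krt20 and Lcn2, all with lower values in DN+NaB), beside 1726 of 17530 genes. Without DN replicate 4 there were none of the 10, beside 1331 of 17835 genes. DESeq2 called 84 genes higher and 173 lower. The median log2 fold change of the 10 was −0.66 with all libraries and −0.04 without DN replicate 4, beside −0.02 and 0.00 for all tested genes.

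In diabetic mice given butyrate relative to normal controls, Krt8, Clu and Sox9 were again the genes that rose. This comparison shares its NC libraries with that of DN, so the repeat is not a separate observation. The count of 3 of 10 stands beside 6.62% of all tested genes called higher, and 0 of 10 beside 8.94% called lower. When DN replicate 4 was left out of the fit, Spp1 was called higher as well and Vcam1 lower, although that library belongs to neither group. In that fit 1570 of 17835 tested genes were called higher and 2146 lower. The fit shares 1 estimate of spread over all groups, and the standard error of Spp1 was 0.32 with that library and 0.16 without it.

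**Figure D2:**
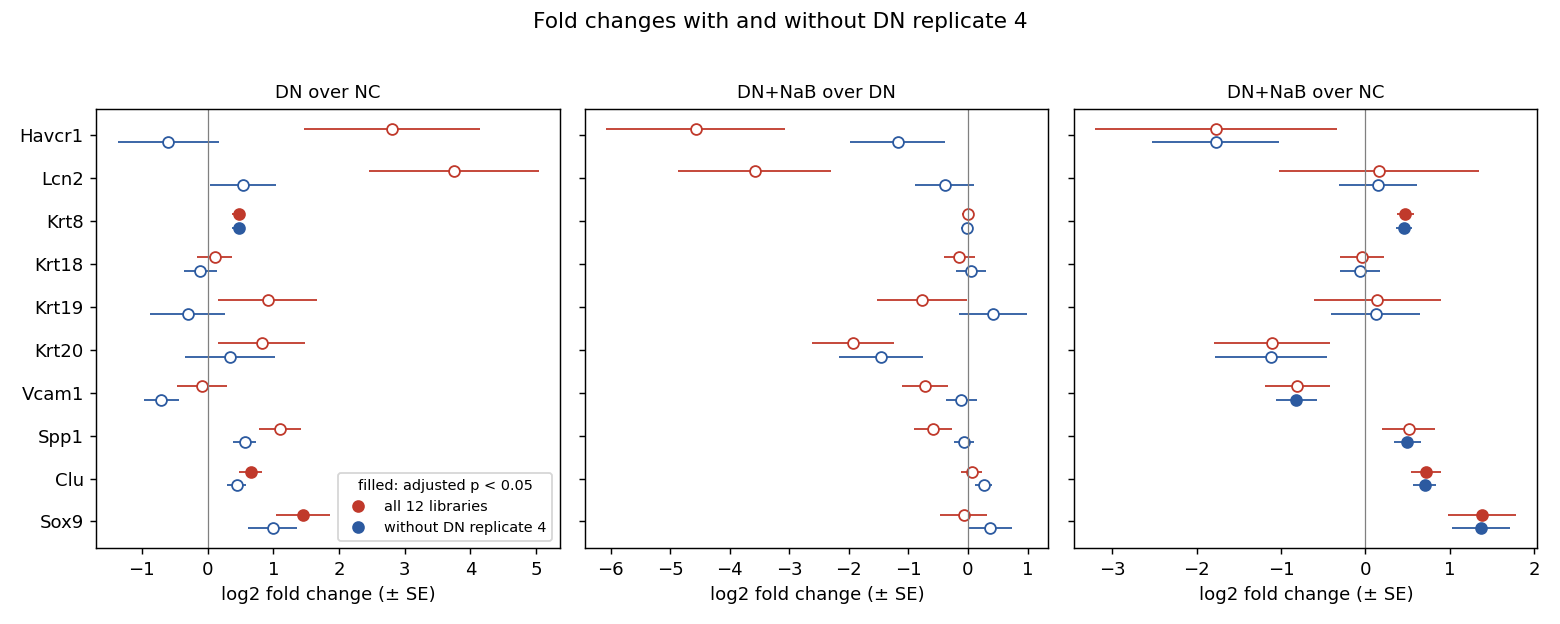
Log2 fold change (± SE, edgeR fit) of the 10 genes in DN over NC, DN+NaB over DN and DN+NaB over NC, with all 12 libraries (red) and without DN replicate 4 (blue); filled points passed the adjusted p threshold. The middle panel has no filled point, and the Havcr1 and Lcn2 points of the first 2 panels move most when the library is left out.

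Havcr1 encodes KIM-1, a surface receptor that injured proximal tubule cells use to take up dying neighbours and that is shed into urine. Its level was 0.0851, 0.0994, 0.444 and 0.115 CPM in DN+NaB, 0.768, 0.106, 0.394 and 16.6 CPM in DN, and 0.964, 0.155, 0.377 and 1.04 CPM in NC. Only DN replicate 4 was high, with 1026 counts, and the other 11 libraries had 5 to 75 counts with overlapping groups. The fold change of DN over NC was 2.81 ± 1.33 on the log2 scale (SE, adjusted p = 0.254), and −0.60 ± 0.77 without DN replicate 4 (adjusted p = 0.674). DN+NaB over DN gave −4.57 ± 1.5 (adjusted p = 0.348), and −1.18 without DN replicate 4 (adjusted p = 0.884). Over NC, DN+NaB gave −1.77 ± 1.44 (adjusted p = 0.447).

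Lcn2 encodes NGAL, a secreted protein that binds bacterial iron carriers and is released by injured distal tubule and by neutrophils. It had 4.90, 3.81, 2.70 and 10.5 CPM in DN+NaB, 11.1, 2.46, 8.11 and 241 CPM in DN, and 5.04, 4.27, 5.47 and 4.83 CPM in NC. DN replicate 4 lay 21.6 times above the next library, DN replicate 1, and held 91.7% of the summed CPM of the DN group. DN replicates 1 and 3 lay above all NC libraries, while DN replicate 2 lay below them. The fold change of DN over NC was 3.74 ± 1.29 on the log2 scale (adjusted p = 0.117), and 0.54 ± 0.50 without DN replicate 4 (adjusted p = 0.539). Against DN, DN+NaB gave −3.58 ± 1.28 (adjusted p = 0.41), and −0.39 without DN replicate 4 (adjusted p = 0.981). Against NC, it gave 0.16 ± 1.19 (adjusted p = 0.945), and leaving out DN+NaB replicate 4 turned it to −0.36.

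The promoters of Havcr1 and Lcn2 are shown because they drive the genes whose DN values rest on that library. RefSeq holds 3 starts for Havcr1, and the one nearest to the annotated start codon is given. Each window covers 250 bases before and 20 after the start in GRCm38.p6, 5′ to 3′ along the gene; a lone capital marks the start base, and a run of capitals an AP-1 pattern match.
Havcr1, chr11:46750918-46751187, plus strand: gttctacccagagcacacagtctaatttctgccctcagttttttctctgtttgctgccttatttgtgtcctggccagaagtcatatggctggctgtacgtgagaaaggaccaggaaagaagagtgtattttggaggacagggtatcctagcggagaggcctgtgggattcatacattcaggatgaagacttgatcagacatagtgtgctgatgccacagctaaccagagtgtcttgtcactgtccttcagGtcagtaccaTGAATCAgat
Lcn2, chr2:32387720-32387989, minus strand: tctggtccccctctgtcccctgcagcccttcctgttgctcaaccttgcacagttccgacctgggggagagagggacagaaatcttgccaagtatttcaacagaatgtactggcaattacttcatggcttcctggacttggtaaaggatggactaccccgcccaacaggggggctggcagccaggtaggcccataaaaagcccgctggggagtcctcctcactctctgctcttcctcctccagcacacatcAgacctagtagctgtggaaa

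Promoters were present in the RefSeq table for 6 of the 10 genes (Havcr1, Lcn2, Krt8, Krt18, Krt20 and Spp1), each read from 250 bases before to 50 after the start on both strands. The NF-kB pattern GGANNNTCC and the STAT pattern TTCNNNGAA matched none of them. The AP-1 pattern TGANTCA matched once, in the Havcr1 window shown, 10 bases after the start base, where it overlaps the ATG of the start codon. Of 32851 mouse promoters of the same length, 8.62% hold the NF-kB pattern, 8.3% the STAT pattern and 7.81% the AP-1 pattern.

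Spp1 encodes osteopontin, a secreted matrix protein that binds integrins and CD44 and draws macrophages. It had 887, 619, 955 and 930 CPM in DN+NaB, 925, 647, 1104 and 2413 CPM in DN, and 666, 555, 568 and 585 CPM in NC. Within each diabetic group, 3 of 4 libraries lay above all NC libraries, and replicate 2 of each lay inside the NC range. The fold change of DN over NC was 1.10 ± 0.32 on the log2 scale with an adjusted p of 0.0522, just outside the threshold. It was 0.57 ± 0.17 without DN replicate 4 (adjusted p = 0.054), and it passed without DN replicate 1 (adjusted p = 0.0476) or without DN replicate 2 (adjusted p = 0.0119). The DN+NaB libraries gave −0.59 ± 0.32 over DN (adjusted p = 0.583), and −0.07 without DN replicate 4. That of DN+NaB over NC was 0.51 ± 0.32 (adjusted p = 0.302), and 0.50 ± 0.16 without DN replicate 4 (adjusted p = 0.0441).

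Clu encodes clusterin, a secreted chaperone that binds misfolded proteins. It had 566, 623, 576 and 545 CPM in DN+NaB, 365, 571, 514 and 762 CPM in DN, and 369, 385, 369 and 282 CPM in NC. All 4 DN+NaB libraries lay above all 4 NC libraries, whereas DN replicate 1 lay inside the NC range. Clu averaged 578 ± 32.9 CPM in DN+NaB, 553 ± 164 CPM in DN and 351 ± 46.9 CPM in NC (SD, n = 4 each). It rose 1.57-fold in DN over NC, 0.66 ± 0.18 on the log2 scale (adjusted p = 0.0363), and 1.64-fold in DN+NaB over NC, 0.72 ± 0.18 (adjusted p = 0.0146). DN+NaB over DN gave 0.06 ± 0.18 (adjusted p = 0.925). The call of DN over NC was lost without NC replicate 1, 2, 3 or 4, DN replicate 2 or 4, or DN+NaB replicate 3 (adjusted p 0.0501 to 0.105), and the value without DN replicate 4 was 0.44 ± 0.14 (adjusted p = 0.0666). The call of DN+NaB over NC was lost without NC replicate 4, the lowest library (adjusted p = 0.0539).

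Vcam1 encodes an adhesion molecule that holds integrin-bearing white cells and marks tubule cells that have not completed repair. It had 6.94, 6.74, 10.8 and 15.3 CPM in DN+NaB, 13.2, 9.01, 10.2 and 33.3 CPM in DN, and 18.0, 19.5, 17.0 and 15.1 CPM in NC. DN replicate 4 was the highest of the 12 libraries, while DN replicates 1, 2 and 3 all lay below the 4 NC libraries, and 3 of the 4 DN+NaB libraries did as well. With all libraries, DN over NC was −0.08 ± 0.38 on the log2 scale (adjusted p = 0.941). Without DN replicate 4 it was −0.70 ± 0.27 (adjusted p = 0.111). DN+NaB over DN was −0.73 ± 0.39 (adjusted p = 0.58), and −0.11 without DN replicate 4 (adjusted p = 0.996). DN+NaB over NC was −0.81 ± 0.39 (adjusted p = 0.185), and −0.82 ± 0.24 without DN replicate 4 (adjusted p = 0.0321).

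Krt8 and Krt18 encode the type II and type I keratins that pair into the filaments of simple epithelia. Krt8 had 152, 125, 133 and 119 CPM in DN+NaB, 123, 127, 151 and 125 CPM in DN, and 97.5, 90.8, 99.8 and 92.1 CPM in NC. Every library of both diabetic groups lay above every NC library, and DN replicate 4 was no higher than the rest. Krt8 was the only one of the 10 genes whose DN and NC libraries did not overlap, beside 5.86% of tested genes with all 4 DN libraries above all 4 NC libraries. It rose 1.39-fold in DN over NC, 0.47 ± 0.10 on the log2 scale (adjusted p = 0.0122), and 1.39-fold in DN+NaB over NC, 0.47 ± 0.10 (adjusted p = 0.00701). Both calls held in all 12 fits that left out 1 library, with values of 0.40 to 0.50 and 0.40 to 0.53. DN+NaB over DN gave 0.00 ± 0.10 (adjusted p = 0.992).

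Its partner gave other values. Krt18 had 45.3, 22.4, 28.6 and 25.1 CPM in DN+NaB, 25.7, 24.2, 38.2 and 46.1 CPM in DN, and 32.4, 29.8, 40.6 and 21.8 CPM in NC, and the 3 groups overlapped throughout. The fold change of DN over NC was 0.11 ± 0.26 on the log2 scale (adjusted p = 0.868), and that of DN+NaB over NC −0.04 ± 0.26 (adjusted p = 0.94). Per 100 Krt8 counts there were 29.8, 17.9, 21.5 and 21.2 Krt18 counts in DN+NaB, 20.8, 19.0, 25.2 and 36.9 in DN, and 33.3, 32.8, 40.7 and 23.7 in NC. The ratio averaged 22.6 ± 5.05 in DN+NaB, 25.5 ± 8.04 in DN and 32.6 ± 6.95 in NC (SD, n = 4). DN+NaB against NC gave an exact permutation p of 0.0571 (two-sided), DN against NC 0.257 and DN+NaB against DN 0.6. After Benjamini-Hochberg adjustment over these 3 comparisons, the exact p-values were 0.171, 0.386 and 0.6, so no difference in the ratio held up. The ratio was chosen after the values were seen.

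Krt19 encodes a type I keratin of ducts and urothelium that injured tubule cells can switch on. It had 14.5, 1.79, 5.94 and 8.43 CPM in DN+NaB, 4.75, 4.96, 7.43 and 35.2 CPM in DN, and 7.21, 6.11, 11.1 and 3.37 CPM in NC. DN replicate 4 was 2.43 times as high as the next library, DN+NaB replicate 1, and the groups overlapped. The urothelium markers summed to 67.1 CPM in DN+NaB replicate 1 and 54.6 CPM in DN replicate 4, above all other libraries. In DN replicate 4, 3 of the 10 markers had their highest value, beside 16.7% of all tested genes. They were the basal keratin Krt5 at 27.6 CPM, Krt15 at 3.6 CPM and Trp63 at 1.99 CPM. The uroplakin genes Upk1a and Upk3a had their lowest value of the 12 libraries there, 0.775 and 0.145 CPM. The other markers were neither highest nor lowest in that library. The part of urothelium in the Krt19 values was not tested. The fold change of DN over NC was 0.91 ± 0.76 on the log2 scale (adjusted p = 0.545), and −0.30 without DN replicate 4. That of DN+NaB over DN was −0.77 ± 0.75 (adjusted p = 0.765), and 0.42 without DN replicate 4. That of DN+NaB over NC was 0.14 ± 0.75 (adjusted p = 0.923).

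Krt20 encodes a type I keratin of gut and bladder lining that appears in damaged tubules of mice. It was scarce, with 21, 10, 5 and 24 counts in DN+NaB, 81, 23, 19 and 104 counts in DN, and 45, 25, 58 and 8 counts in NC. DN replicates 1 and 4, at 1.27 and 1.68 CPM, were the highest of the 12 libraries. DN replicates 2 and 3, at 0.405 and 0.288 CPM, lay inside the NC range of 0.111 to 0.874 CPM. The fold change was 0.82 ± 0.66 on the log2 scale in DN over NC (adjusted p = 0.522), −1.93 ± 0.69 in DN+NaB over DN (adjusted p = 0.381) and −1.10 ± 0.69 in DN+NaB over NC (adjusted p = 0.308). The value of DN over NC was 0.34 ± 0.69 without DN replicate 4 (adjusted p = 0.804), and −1.46 ± 0.71 was that of DN+NaB over DN (adjusted p = 0.706).

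Sox9 encodes a transcription factor that surviving tubule cells activate while they proliferate. It had 2.23, 1.34, 1.38 and 3.09 CPM in DN+NaB, 1.02, 1.94, 1.71 and 3.78 CPM in DN, and 0.643, 0.619, 0.633 and 1.18 CPM in NC. All DN+NaB libraries lay above all NC libraries, while DN replicate 1 lay below NC replicate 4. The counts behind these values were 81 to 215 in DN+NaB, 65 to 234 in DN and 40 to 85 in NC. Sox9 rose 2.74-fold in DN over NC, 1.45 ± 0.41 on the log2 scale (adjusted p = 0.0416), and 2.61-fold in DN+NaB over NC, 1.38 ± 0.41 (adjusted p = 0.0334). DN+NaB over DN gave −0.07 ± 0.39 (adjusted p = 0.966). The call of DN over NC was lost without NC replicate 1, 2 or 3, DN replicate 2, 3 or 4, or DN+NaB replicate 1 (adjusted p 0.0504 to 0.123), and the value without DN replicate 4 was 0.99 (adjusted p = 0.102). That of DN+NaB over NC was lost without NC replicate 1, 2 or 3, or DN+NaB replicate 1 or 4 (adjusted p 0.065 to 0.111).

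In DN+NaB over NC, 3 of the 10 genes (Krt8, Clu and Sox9) had groups that did not overlap, all of them higher, beside 14.0% of tested genes with all 4 DN+NaB libraries above all 4 NC libraries. Groups of 4 that do not overlap always give an exact permutation p on log2 CPM of 0.0286, the smallest possible. That p for these 3 genes is therefore no further support. Between DN+NaB and DN the libraries overlapped for all 10 genes.

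A list of 30 other injury and repair genes was read in the same fits, and 28 of them were tested. In DN over NC, 3 rose and none fell, beside 3.82% and 4.42% of all tested genes: Cp, the copper-carrying ferroxidase ceruloplasmin, by 1.63 ± 0.33 on the log2 scale (adjusted p = 0.00866), Fgg, the fibrinogen gamma chain, by 2.83 ± 0.63 (adjusted p = 0.0196), and Tnfrsf12a, the receptor of TWEAK, by 1.02 ± 0.29 (adjusted p = 0.0438). The list's median log2 fold change was 0.45, beside 0.01 for all tested genes. In DN replicate 4, 18 of the 28 had their highest value, beside 16.7% of all tested genes. Without that library the median was −0.03. Cp, Fgg and Tnfrsf12a were called higher there too (1.10, 2.19 and 0.52 on the log2 scale), and the intermediate filament gene Vim and the annexin gene Anxa2 were called lower (−0.46 and −0.77).

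In DN+NaB over NC, 4 of the 28 rose and 1 fell, beside 6.62% and 8.94% of all tested genes. Without DN replicate 4 there were 6 higher and 3 lower of 29 tested, beside 1570 and 2146 of 17835 genes. Cdkn1a and Gdf15 were added to the higher and Anxa2 and Il34 to the lower. Cp rose by 1.19 ± 0.32 on the log2 scale (adjusted p = 0.0267) and Fgg by 2.33 ± 0.62 (adjusted p = 0.0282). Prom1, which encodes the membrane protein CD133, rose by 0.94 ± 0.15 (adjusted p = 0.000749), and Itgb6, an epithelial integrin chain that can activate TGF-beta, rose by 0.83 ± 0.21 (adjusted p = 0.0147). Vim, the vimentin gene of mesenchymal and dedifferentiated cells, fell by 0.61 on the log2 scale (adjusted p = 0.00261). Prom1 had 183, 199.5, 181 and 178 CPM in DN+NaB, 90.0, 144, 114.5 and 153 CPM in DN, and 84.3, 94.6, 98.5 and 109 CPM in NC, so its DN+NaB libraries lay above all the others. None of the 28 was called in DN+NaB over DN, where Prom1 gave 0.56 ± 0.15 (adjusted p = 0.183).

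**Figure D3:**
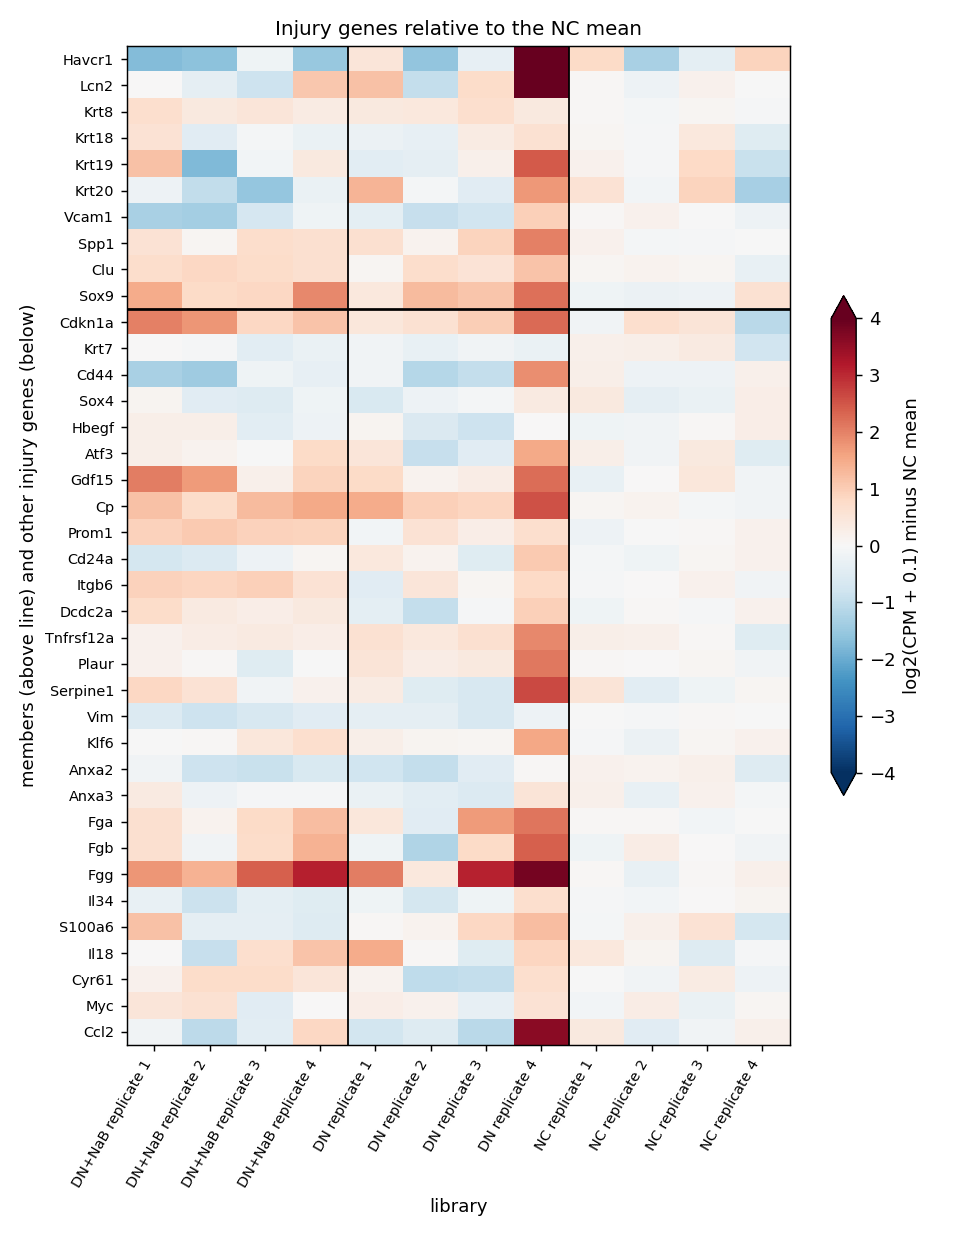
Log2(CPM + 0.1) minus the NC mean for the 10 genes (above the line) and 28 other injury and repair genes, with DN+NaB, DN and NC libraries from left to right; red is above the NC mean, blue below, and colours saturate at the ends of the scale. The DN replicate 4 column is the reddest, and Cp and Fgg are red across both diabetic groups.

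Among 15 acute-phase genes, whose products rise in systemic inflammation, 7 were tested. In DN over NC 3 of the 7 rose, beside 3.82% of all tested genes. C3, the central complement component, rose by 3.75 ± 0.43 on the log2 scale (adjusted p = 0.00023). Hp, the haptoglobin gene, rose by 1.98 ± 0.53 (adjusted p = 0.0343), and Cp rose as well. In DN+NaB over NC 2 rose, beside 6.62% of all tested genes: C3, by 2.43 ± 0.40 (adjusted p = 0.00187), and Cp. C3 had 363, 242, 395 and 377 CPM in DN+NaB, 1162, 259, 702 and 1295 CPM in DN, and 78.3, 63.3, 67.1 and 46.0 CPM in NC, so every diabetic library lay above every NC library. None was called in DN+NaB over DN, where C3 gave −1.31 ± 0.39 (adjusted p = 0.274). Of the 7, 5 were highest in DN replicate 4, beside 16.7% of all tested genes. Without that library C3 and Cp were called higher in DN over NC but Hp was not (1.36 ± 0.48, adjusted p = 0.0887), and the list's median log2 fold change was 0.58, against 1.63 with all libraries. The untested serum amyloid gene Saa1 had 831 counts there and 0 to 6 in each other library, and Timp1, an untested injury gene, had 334 counts there and 1 to 17 elsewhere.

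Among 14 tested genes that encode binding partners of these proteins, 1 fell in DN over NC, beside 4.42% of all tested genes. In DN+NaB over NC 2 fell, beside 8.94%. None rose in either, beside 3.82% and 6.62%. Without DN replicate 4 the counts that fell were 2 and 4, beside 1055 and 2146 of 17835 genes. The integrin chain gene Itga5 was added in both and Itgav in DN+NaB over NC. Itga9, an integrin chain that binds osteopontin and VCAM-1, fell by 0.62 on the log2 scale in DN (adjusted p = 0.0246). Itga4 and Itgb7, the white-cell integrin chains whose dimer binds VCAM-1, fell by 1.60 (adjusted p = 0.0223) and 1.84 (adjusted p = 0.000551) in DN+NaB. Itgb7 had 1.40, 1.14, 2.06 and 1.84 CPM in DN+NaB, 5.0, 2.94, 2.79 and 5.70 CPM in DN, and 7.24, 5.76, 4.56 and 5.53 CPM in NC. Its DN+NaB libraries lay below all others, and DN+NaB over DN gave −1.35 ± 0.27 (adjusted p = 0.0827). Cd44, the hyaluronan and osteopontin receptor, had 1.77, 1.62, 3.98 and 3.55 CPM in DN+NaB, 4.08, 2.01, 2.29 and 16.7 CPM in DN, and 5.27, 3.87, 3.92 and 5.15 CPM in NC. Its fold change was 0.46 ± 0.59 in DN over NC (adjusted p = 0.721), with its highest value in DN replicate 4, and −0.72 ± 0.35 without that library (adjusted p = 0.212).

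Among 16 other tested keratins and filament partners, none was called in DN over NC, where Vim alone was called lower without DN replicate 4, or in DN+NaB over DN. Vim and Dsp fell in DN+NaB over NC, beside 8.94% of all tested genes called lower. Dsp, the gene of the desmosomal plaque protein desmoplakin, fell by 0.72 on the log2 scale (adjusted p = 0.0381). The list's median was 0.06 in DN over NC and −0.22 in DN+NaB over NC. Krt7, another simple epithelial keratin, gave −0.27 ± 0.19 in DN over NC (adjusted p = 0.458).

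Markers of other cells moved with DN replicate 4. Neutrophil genes summed to 2.21 to 15.3 CPM in DN+NaB, 88.4 CPM in DN replicate 4, 3.64 to 6.55 CPM in the other DN libraries and 4.49 to 6.59 CPM in NC. Of the 8 tested, 7 were highest in DN replicate 4, beside 16.7% of all tested genes. These 7 were Ltf, the lactoferrin gene, with 3166 counts, S100a8 (229), S100a9 (321), Retnlg (231), Cxcr2 (137), Csf3r (822) and Mmp9 (553). Lcn2 had 14915 counts there. The untested granule genes Camp, Mpo and Elane had 0, 2 and 10 counts there, and no untested gene of the list passed 152 counts in any library. DN+NaB replicate 4, the DN+NaB library with the most Lcn2, also had the most Ltf of its group, 660 counts. Red blood cell genes summed to 4.18 to 134 CPM in DN+NaB, 247 CPM in DN replicate 4, 6.19 to 10.5 CPM in the other DN libraries and 25.5 to 93.2 CPM in NC. The thin limb and papilla markers summed to 1398 CPM in DN replicate 4, the highest of the 12 libraries, and its proximal tubule sum, 25626 CPM, was the lowest. The part of these cells in the values of DN replicate 4 was not tested.

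Macrophage markers ran beside Vcam1. The 12 genes summed to 132 to 162 CPM in DN+NaB, 310 CPM in DN replicate 4, 145 to 169 CPM in the other DN libraries and 216 to 304 CPM in NC. Of the 12, 6 fell in DN+NaB over NC, beside 8.94% of all tested genes. They fell by 0.62 to 1.57 on the log2 scale: Mrc1, Adgre1, Cd68, Csf1r, C1qa and C1qb. In DN over NC 2 fell, Csf1r by 0.91 and Mrc1 by 1.11, beside 4.42% of all tested genes. Without DN replicate 4 these counts were 9 in DN+NaB over NC and 5 in DN over NC, beside 2146 and 1055 of 17835 genes. Adgre1, Cd68 and Itgam were added in DN over NC. T and NK cell markers summed to 2.6 to 3.74 CPM in DN+NaB, 6.57 to 21.1 CPM in DN and 18.0 to 31.3 CPM in NC. All 9 tested fell in DN+NaB over NC, beside 8.94% of all tested genes. The 6 with the smallest p were Cxcr3 (−3.30 on the log2 scale), Cd5 (−4.54), Nkg7 (−2.50), Cd4 (−2.6), Cd3d (−4.18) and Cd3e (−3.38). In DN+NaB over DN, Cd5 fell by 3.31 and Cxcr3 fell by 2.31 (adjusted p = 0.0376 and 0.0299), beside 0.0114% of all tested genes called lower. In DN over NC, Cd4, Cxcr3 and Nkg7 fell, beside 4.42%. Without DN replicate 4 only Cd4 of these 3 was called in DN over NC (Cxcr3 adjusted p = 0.0612, Nkg7 0.0593). None of these T and NK cell genes was highest in DN replicate 4, where 5 of the 12 macrophage genes were, beside 16.7% of all tested genes. These 5 were Lyz2, Cd14, Itgam, Gpnmb and Trem2. By contrast, Csf1r at 73.4 CPM and Mrc1 at 5.75 CPM lay below all NC libraries there (99.3 to 118 and 7.38 to 9.41 CPM). Adgre1 at 9.25 CPM and Cd68 at 6.57 CPM lay inside the NC range. The 10 endothelial markers summed to 684 to 780 CPM in DN+NaB, 648 to 754 CPM in DN and 701 to 835 CPM in NC. The part of immune and endothelial cells in the Vcam1 values was not tested.

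Nephron segment markers also differed between the groups in which Krt8, Clu and Sox9 rose. The thick ascending limb genes summed to 5794 to 7333 CPM in DN+NaB, 5627 to 7646 CPM in DN and 7998 to 13538 CPM in NC. Umod, the uromodulin gene, fell by 0.82 in DN over NC and 0.87 in DN+NaB over NC on the log2 scale, and Egf, the epidermal growth factor gene, fell by 0.81 and 0.68. Slc12a1, the salt carrier of that segment, fell by 0.96 in DN+NaB over NC, while the tight-junction gene Cldn10 rose by 0.49. Of 12 proximal tubule genes, 2 rose in DN+NaB over NC, beside 6.62% of all tested genes, and none was called in DN over NC. These were Slc5a2, the glucose carrier SGLT2, by 0.83 and Slc22a8, an organic anion carrier, by 0.81. In the thin limb and papilla list Slc5a3 fell by 1.54 in DN+NaB over NC. In the parietal epithelium list Cldn1 rose by 0.70 in DN and 1.13 in DN+NaB over NC, and Ncam1 fell by 0.81 in each; without DN replicate 4 the DN value of Cldn1 was 0.65 (adjusted p = 0.0725). Among endothelial genes Cdh5 fell in both diabetic groups, by 0.55 and 0.38, and Tek in DN+NaB by 0.71. No collecting duct, urothelium or red blood cell gene was called in any comparison. The lists held 7 thick ascending limb, 7 thin limb and papilla, 6 parietal and 10 endothelial genes, all tested. Calls in DN over NC stand beside 3.82% of all tested genes called higher and 4.42% lower. Those in DN+NaB over NC stand beside 6.62% and 8.94%. Leaving out DN replicate 4 added Slc12a1, Bst1 and Tek to the genes called lower in DN over NC and Aqp1 to those called higher. It also added Bst1 to those called lower in DN+NaB over NC. In that setting 1055 of 17835 tested genes were called lower and 921 higher in DN over NC, and 2146 lower in DN+NaB over NC. The part of segment makeup in the values of Krt8, Clu and Sox9 was not tested.

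**Figure D4:**
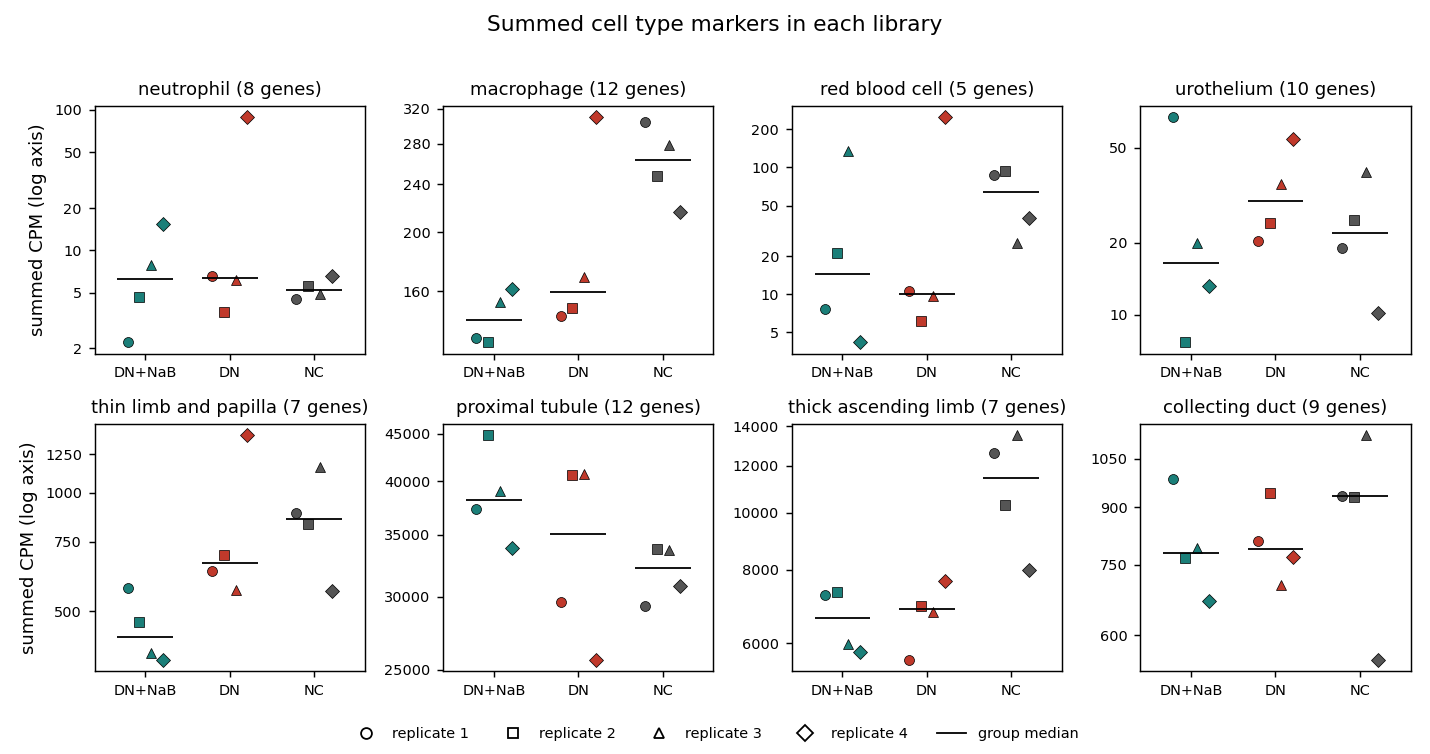
Summed CPM of the tested markers of 8 cell types in each library, on log axes that differ between panels, with DN+NaB, DN and NC from left to right and a bar at the group median. DN replicate 4 (red diamond) is highest for neutrophil, macrophage, red blood cell, and thin limb and papilla markers, and lowest for proximal tubule.

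For each of the 10 genes, the 3 tested genes with the most similar log2 CPM across the 12 libraries were listed as a description; the libraries share their groups and DN replicate 4. Lcn2 was most like Ptgs2, the inducible cyclooxygenase gene, at Pearson r = 0.953 (Spearman rho 0.804), which became 0.701 without DN replicates 1 and 4. Havcr1 was most like the long noncoding RNA Lncpint at r = 0.947 (rho 0.902), and another of its matches was Cd44 at r = 0.913 (rho 0.944, and r = 0.728 without DN replicate 4 and DN+NaB replicate 1). Vcam1 was most like Ms4a6d, a membrane protein gene, at r = 0.968 (rho 0.951), and Spp1 most like the protease gene Asprv1 at r = 0.956 (rho 0.902). Krt19 was most like Msln, which encodes mesothelin, at r = 0.959 (rho 0.923), with the basal keratin Krt5 second at r = 0.953 (rho 0.881).

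The closest match of Krt8 was Sh3tc2 at r = 0.967 (rho 0.867), which was 0.953 without NC replicates 2 and 4. Krt18 was most like Mbp at r = 0.911 (rho 0.902) and Krt20 most like Rin1 at r = 0.864 (rho 0.874). Clu was most like Tmem43 at r = 0.948 (rho 0.832). Sox9 was most like Inhbb, which encodes an activin and inhibin chain, at r = 0.932 (rho 0.902), and 0.868 without DN replicate 4 and DN+NaB replicate 4. The other matches were Cttnbp2nl for Havcr1, Sh3bgrl2 and Tmem173 for Lcn2, Hdc and Relb for Spp1, Slc15a4 and Adamts4 for Clu, and Ms4a6b and Tespa1 for Vcam1. For the remaining genes they were Pfas and Slc16a6 for Krt8, S100a6 and Lamb3 for Krt18, Mbp for Krt19, Mal and Wdr20 for Krt20, and Mir7212 and Ipmk for Sox9.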

How the data were processed

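The authors deposited whole-number read counts per gene symbol for 12 libraries in 1 table, not normalized. HISAT2 2.0.4 was used per the submitters' processing notes. Which counter, strand setting, annotation and build lie behind the counts is not given in the sources used here, so overlapping genes and copies cannot be told apart: in GENCODE M21, Krt8 shares 101 exon bases with Gm36026, Vcam1 61 with Gm43109 and Spp1 309 with Gm42793, and the copy Krt8-ps had 14 to 36 counts. No pair of libraries agreed within sampling noise (smallest chi-square per degree of freedom 23.6).

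Groups came from the sample titles. A low-count filter (filterByExpr, by group) left 17530 genes, and TMM factors scaled the libraries. One edgeR 4.0.16 quasi-likelihood fit (glmQLFit, robust, R 4.3.3) held all 12 libraries, with group as its sole term and two-sided tests, with Benjamini-Hochberg adjustment over all genes tested in a comparison and a threshold of 0.05. Every adjusted p in the text is from this test unless another is named. Log2 CPM used a prior count of 2. The fit was tested on simulated counts.

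The 10 genes and the other lists were chosen with earlier results of these data known. All 10 are named whatever their values; from another list, every called gene is named where there are 6 or fewer, otherwise up to 6 with the smallest p. Further list genes beside them were picked after their values were seen, as were the genes added when DN replicate 4 was left out. The further genes were Saa1, Timp1, Cd44, Krt7, Krt5, Krt15, Trp63, Upk1a and Upk3a. From the neutrophil list they were Ltf, S100a8, S100a9, Retnlg, Cxcr2, Csf3r, Mmp9, Camp, Mpo and Elane. The values of Prom1, C3 and Itgb7 were picked in the same way. Alternatives of scaling and filter were RLE factors, upper-quartile factors, library size alone, no filter and at least 1 CPM in 4 libraries. Others were no robust estimation, a replicate block, only the groups compared and DESeq2 1.42.0. An exact permutation test on log2 CPM, with p unadjusted for the 10 genes, was run too. Each of the 12 libraries was also left out in turn.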

Additional observations from a re-analysis of the deposited data

Results flagged for a closer look

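Each of the 10 genes was read within each group of 4 libraries for a highest or lowest value whose gap to the others, over the group's range, passed Dixon's 95% critical value. This held for 7 of 30 values. The genes share their libraries and were chosen with results of these data known, so the count is a description. DN replicate 4 accounted for 3: Lcn2 at 241 CPM (the other DN libraries 2.46 to 11.1), Havcr1 at 16.6 CPM (others 0.106 to 0.768) and Krt19 at 35.2 CPM (others 4.75 to 7.43). In DN replicate 3, Krt8 stood at 151 CPM against 123 to 127. In DN+NaB replicate 3, Havcr1 stood at 0.444 CPM, 27 counts, against 0.0851 to 0.115. In NC replicate 4, Clu was low at 282 CPM against 369 to 385, and Sox9 was high at 1.18 CPM against 0.619 to 0.643. Both genes rose in DN and in DN+NaB over NC, and the fits without that library gave 0.56 for Clu and 1.73 for Sox9 in DN over NC on the log2 scale.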

How the results depend on the processing

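Over all alternative fits apart from those that left out 1 library, Krt8 stayed called in DN and in DN+NaB over NC. No injury gene was called in DN+NaB over DN in these fits. In the exact permutation test, Krt8 had an unadjusted p of 0.0286 in DN and in DN+NaB over NC, the smallest possible. Injury genes called higher in DN over NC were 1 with library size alone or only the groups compared. Clu and Sox9 lost that call there (adjusted p 0.0744 and 0.0723 with library size alone, 0.085 and 0.06 with only 2 groups). Clu also lost it under the replicate block (0.066), and Sox9 at 1 CPM in 4 libraries (0.05). The unadjusted exact permutation p-values of Clu and Sox9 in DN over NC were 0.114 and 0.0571. Spp1 in DN over NC passed without robust estimation (0.0426) and with DESeq2 (0.00373). Sox9 in DN+NaB over NC was lost with library size alone (0.0664). With only the groups compared, Spp1 passed there (0.0194), 1 injury gene was called lower, Vcam1 (−0.81, adjusted p = 0.0365), and 1783 genes were called higher. DESeq2 called 1031 genes higher in DN over NC.

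Genes called in DN+NaB over DN, 2 higher and 2 lower, became 8 and 14 with RLE factors, 8 and 18 with library size alone, 9 and 18 with no filter, 7 and 10 at 1 CPM in 4 libraries, 0 and 0 with only the groups compared, 84 and 173 with DESeq2, and 4 higher with the replicate block. Correlations of the deviations of same-numbered libraries ran from −0.245 to 0.269. They were over 0.1 for number 4 in all 3 comparisons (0.2 to 0.269) but not for every number in any comparison, so the numbers were not taken as pairs. Values near 0 changed sign: Krt8 in DN+NaB over DN was −0.009, −0.005 and −0.002 with library size alone, 1 CPM and only the groups compared, and in DN+NaB over NC Lcn2 and Krt19 were −0.283 and −0.201 under the block and −0.025 and −0.084 as differences of mean log2 CPM. The cause was not tested.

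Leaving out 1 library at a time gave 1 to 4 injury genes higher in DN over NC (409 to 921 genes higher, 533 to 1055 lower), and 2 to 4 higher and 0 to 1 lower in DN+NaB over NC (790 to 1570 and 1043 to 2146 genes). DN+NaB over DN gave 0 to 30 genes higher and 0 to 37 lower, the most without DN replicate 3. Signs changed in DN over NC for Havcr1 (−0.60 to 3.21), Krt18 (−0.11 to 0.26), Krt19 (−0.30 to 1.24) and Vcam1 (−0.70 to 0.12). They changed in DN+NaB over DN for Krt8 (−0.07 to 0.08), Krt18 (−0.40 to 0.051), Krt19 (−1.28 to 0.42), Clu (−0.091 to 0.26) and Sox9 (−0.35 to 0.38). They changed in DN+NaB over NC for Lcn2 (−0.36 to 0.39), Krt18 (−0.30 to 0.11) and Krt19 (−0.36 to 0.47). Counts of 5 to 75 for Havcr1 outside DN replicate 4 limit what could be detected.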
